A study of Homo sapiens with 6 samples.

Results

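Ephrins, Eph receptors, semaphorins, plexins and neuropilins are families of cell surface or secreted proteins that guide axons, blood vessels and migrating cells. They were followed by name in a gene table of SU-DHL-8, a human lymphoma line of the diffuse large B-cell type, a tumour of mature B cells. Every gene whose symbol belongs to one of the 5 families was taken, which gave 52 of 35974 genes: 8 ephrins, 14 Eph receptors, 19 semaphorins, 9 plexins and 2 neuropilins. RNA had been sequenced in 6 libraries, 3 from cells given the solvent DMSO and 3 from cells given an inhibitor. All 6 carry the label DNMT1 wild type and the tissue label lymph node. The inhibitor is GSK3685032, which blocks DNMT1, the methyltransferase that maintains CpG methylation when DNA is replicated. The treatment labels of inhibitor replicates 2 and 3 end in 33 and 34 (GSK3685033 and GSK3685034), whereas the series design names GSK3685032 alone. For dose and duration, not given in the sources used here, no value is reported. The labels do not say whether replicates were grown separately. A p-value here therefore reflects the spread among the 6 libraries alone, and that spread may be technical.

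In this signalling system a membrane-bound or secreted cue on one cell meets a receptor on another and changes its actin skeleton and adhesion. Ephrins are the cues of the Eph receptors, the largest family of receptor tyrosine kinases, and class A ephrins hang on a lipid anchor while class B ephrins span the membrane. Semaphorins act through plexins, whose intracellular part is a GTPase-activating domain, and the secreted class 3 semaphorins mostly need a neuropilin as co-receptor. B cells are known for SEMA4D (CD100), which signals through CD72 in lymphocytes and through PLXNB1 in other cells. PLXNC1 is the receptor of SEMA7A, and EPHB4 is the main receptor of EFNB2.

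The 6 libraries held 53846028 to 75304441 estimated counts. Counts peaked at multiples of 4, so 4 counts were read as about 1 read pair, which gives 13461507 to 18826110 pairs per library. DNMT1 itself fell from 33 ± 0.69 to 12.7 ± 0.774 FPKM (-1.38 on the log2 scale with SE 0.055, adjusted p = 5.38e-08 by edgeR), where the values are means ± SD with n = 3 per group, as below. FPKM, the authors' unit, scales fragments to gene length and library depth. B-cell markers were present in both groups. CD79A (mean 193 FPKM with DMSO and 294 with the inhibitor) and CD22 (9.9 and 15.2) rose, and CD79B (539 and 375), PAX5 (76 and 42.3) and MS4A1 (14 and 3.64) fell. Markers of other cells were low. The single T-cell marker of 4 found in the table (CD3E) and the single endothelial marker of 3 (VWF) were at 0 in all DMSO libraries and summed to at most 0.302 and 0.0328 FPKM with the inhibitor, and 3 of 4 myeloid markers summed to at most 1.01 FPKM in any library. All 4 fibroblast markers summed to 0.0988 to 0.132 FPKM with DMSO, with DCN and COL3A1 at 0, and to 0.407 to 0.572 with the inhibitor. All 4 neuronal markers summed to 0.0152 to 0.0486 FPKM with DMSO, with SNAP25 at 0, and to 0.981 to 1.26 with the inhibitor, and of these markers COL1A2, MAP2, SNAP25 and ELAVL3 rose. The part of such cells in the results was not tested.

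Most guidance genes were silent or nearly so with DMSO, and most of those that could be measured were higher with the inhibitor. With DMSO, 19 of the 52 (36.5%) had 0 counts in all 3 libraries, against 22% of all genes in the table, and 12 reached a mean of 0.5 FPKM. With the inhibitor 23 reached it. A gene was tested with edgeR's quasi-likelihood test over all genes with enough counts and called at an adjusted p of 0.05. Of the 52, 37 were tested, and 27 of these were higher and 3 lower, against 38.1% and 27.3% of all 20783 tested genes (65.4% in either direction). The FPKM values of the 2 groups did not overlap in 31 of the 37, against 71.7% of all tested genes. Of the 37, 13 could pass the filter on low counts only through the inhibitor libraries, so a call of lower was hardly open to them. These were EFNA2, EFNA5, EFNB2, EPHA2, EPHA3, EPHA6, EPHA10, EPHB6, PLXNB1, PLXNB3, SEMA3D, SEMA3E and SEMA3F. Of the other 24, whose DMSO libraries alone reached the count minimum, 14 were higher (58.3%), 3 lower (12.5%) and 7 not called. Over all 15957 genes of that kind, 28.2% were higher and 35.5% lower. In bulk RNA, more cells that express a gene and more RNA per expressing cell cannot be told apart.

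Of the 17 members with a mean of at least 0.5 FPKM over all 6 libraries, 11 were higher, 2 lower and 4 not called, and of all 14242 genes at that level 32.4% were higher and 36.6% lower. However, 5 of the 11 (EFNB2, PLXNB1, PLXND1, SEMA3D and SEMA3G) reached that mean only through the inhibitor libraries. The 6 others that rose (EFNB1, EPHB4, PLXNA1, PLXNA3, PLXNB2 and SEMA6C) reached it with DMSO too. Among the 9 members at 1 FPKM or more with DMSO, 3 were higher (PLXNA1, PLXNA3, EPHB4), 2 lower (PLXNC1, SEMA4A) and 4 not called (SEMA4D, EFNA4, SEMA4B, EFNA3), while 25.6% of all 11186 genes at that DMSO level were higher and 45.4% lower. By a rule without a model, EFNB2 and PLXNB1 were switched on, from under 0.1 FPKM in every DMSO library to at least 1 in every inhibitor library. That is 3.85% of members, and 1.45% of all genes met the same rule.

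The balance of calls over all genes depends on the processing. It was 7918 higher and 5672 lower (58.3% of calls higher), and with upper-quartile factors in the same test 9312 and 4344 (68.2%), with log2 changes up by a median of 0.17. With limma on log2(FPKM + 0.5), over 14807 genes, it was 5260 and 5354 (49.6%), and after quantile normalization of those values 4853 and 5776 (45.7%). The members called were 15 higher and 2 lower with limma, and 9 and 4 after quantile normalization. After it EPHA3, EPHB4, SEMA4C, SEMA4F, SEMA4G and SEMA6C were no longer called (limma adjusted p = 0.3, 0.27, 0.692, 0.214, 0.699 and 0.109). Their changes in log2(FPKM + 0.5) shrank to 0.17, 0.14, 0.05, 0.32, 0.05 and 0.20, from 1.09, 0.40, 0.97, 1.05, 0.71 and 0.55 with limma before it. EFNA3 and SEMA4B, not called by edgeR on all 6 libraries, were called lower there (limma adjusted p = 0.0218 and 0.0176).

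**Figure D1:**
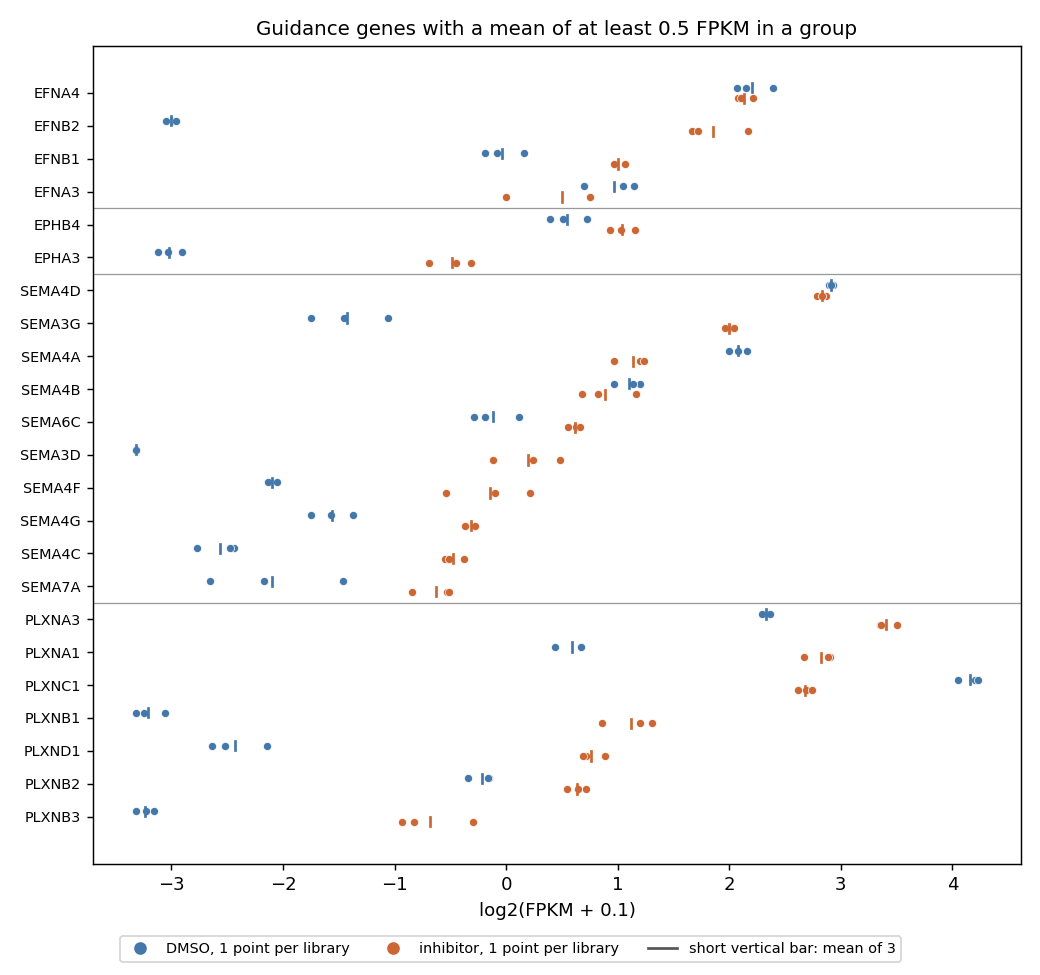
The plot shows log2(FPKM + 0.1) in each library for the 23 guidance genes with a group mean of at least 0.5 FPKM, by family. Each point is a library (blue DMSO, orange inhibitor) and each short bar the mean of 3; the orange points of EFNB2, PLXNB1 and SEMA3D lie far to the right of the blue ones, those of SEMA4D and EFNA4 close to them, and those of PLXNC1 and SEMA4A to the left.

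**Figure D2:**
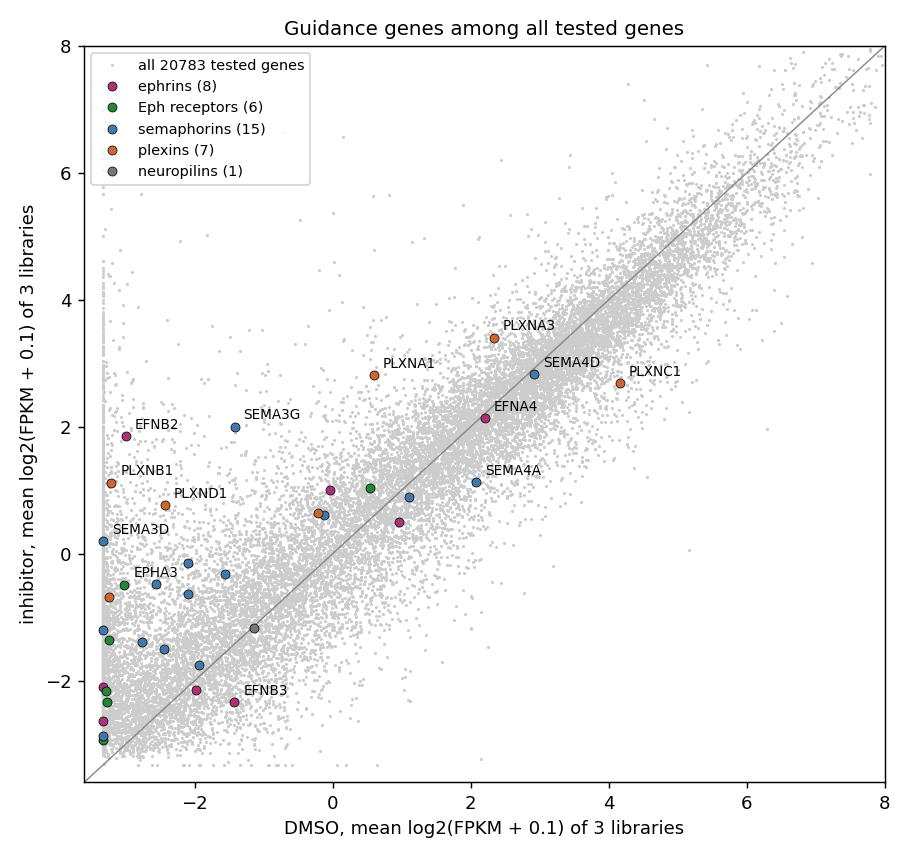
The plot sets the mean log2(FPKM + 0.1) of the 3 inhibitor libraries against that of the 3 DMSO libraries for all 20783 tested genes (grey) and the 37 tested guidance genes (coloured by family), with the line of equal values; the axes end at 8 and genes beyond are not drawn. Most guidance genes lie in the lower left part and above the line, and PLXNC1, SEMA4A and EFNB3 lie below it.

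Since the inhibitor acts on the enzyme that maintains CpG methylation, the DNA before the start of the genes that changed most is shown. These are the 250 bases before the outermost RefSeq start (GRCh38.p14), written in the direction of the gene, with each CpG dinucleotide in capitals. The first 4 genes had the largest increases in mean log2(FPKM + 0.5) and the last 2 the highest DMSO level.
EFNB2, chr13:106535663-106535912, minus strand: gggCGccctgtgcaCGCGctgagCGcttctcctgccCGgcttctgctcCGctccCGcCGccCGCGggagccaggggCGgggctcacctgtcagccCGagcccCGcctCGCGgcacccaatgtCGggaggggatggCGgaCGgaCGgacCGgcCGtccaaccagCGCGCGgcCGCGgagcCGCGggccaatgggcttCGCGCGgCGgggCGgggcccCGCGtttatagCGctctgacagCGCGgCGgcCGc
SEMA3G, chr3:52445104-52445353, minus strand: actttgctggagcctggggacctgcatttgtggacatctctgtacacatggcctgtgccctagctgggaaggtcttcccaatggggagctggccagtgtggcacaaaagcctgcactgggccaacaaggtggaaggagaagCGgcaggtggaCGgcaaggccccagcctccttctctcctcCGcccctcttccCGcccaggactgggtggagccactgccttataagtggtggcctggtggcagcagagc
PLXNB1, chr3:48430087-48430336, minus strand: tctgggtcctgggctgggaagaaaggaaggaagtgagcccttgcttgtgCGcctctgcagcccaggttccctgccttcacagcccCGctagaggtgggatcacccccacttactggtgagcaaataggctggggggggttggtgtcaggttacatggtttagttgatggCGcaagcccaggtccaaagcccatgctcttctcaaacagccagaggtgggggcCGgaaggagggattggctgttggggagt
PLXNA1, chr3:126982865-126983114, plus strand: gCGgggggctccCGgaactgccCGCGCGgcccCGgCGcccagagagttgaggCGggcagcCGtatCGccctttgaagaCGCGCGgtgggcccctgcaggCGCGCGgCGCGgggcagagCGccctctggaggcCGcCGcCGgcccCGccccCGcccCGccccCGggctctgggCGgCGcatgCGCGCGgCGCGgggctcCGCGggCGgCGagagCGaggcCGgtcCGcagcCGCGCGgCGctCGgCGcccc
PLXNC1, chr12:94148327-94148576, plus strand: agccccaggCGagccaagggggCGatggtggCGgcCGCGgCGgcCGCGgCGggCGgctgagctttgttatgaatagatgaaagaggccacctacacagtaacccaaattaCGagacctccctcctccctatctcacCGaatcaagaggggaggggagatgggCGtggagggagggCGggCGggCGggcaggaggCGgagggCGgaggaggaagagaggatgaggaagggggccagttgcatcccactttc
SEMA4D, chr9:89495657-89495906, minus strand: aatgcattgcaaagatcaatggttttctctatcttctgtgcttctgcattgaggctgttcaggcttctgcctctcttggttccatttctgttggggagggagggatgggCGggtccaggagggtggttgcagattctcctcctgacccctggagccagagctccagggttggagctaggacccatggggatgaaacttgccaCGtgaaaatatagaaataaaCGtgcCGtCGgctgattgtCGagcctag
The 4 genes with the largest increases differed in CpG number. EFNB2 and PLXNA1 have 40 and 46 CpG in this window, more than 97.9% and 99.6% of the 27305 genes with a listed promoter, whereas SEMA3G and PLXNB1 have 4 each, more than 30.1%. PLXNB1 has a second listed start further inside the gene, and the window before that one holds 37. PLXNC1 and SEMA4D, both expressed with DMSO, have 18 and 6, and the window before another listed start of PLXNC1 holds 8.

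Of the 8 ephrins, the cues of the Eph receptors, 4 rose, 1 fell and 3 were not called (background 38.1% and 27.3%), and 3 of the 4, EFNA2, EFNA5 and EFNB2, passed the filter only through the inhibitor libraries. Among the class B ephrins EFNB2 and EFNB1 rose and EFNB3 fell, while of the class A ephrins the 2 that were expressed with DMSO, EFNA4 and EFNA3, were not called. EFNB2 (ENSG00000125266, chromosome 13, 106489745 to 106535662), the arterial ephrin of developing vessels, measured 0.0257, 0.0285 and 0.0209 FPKM with DMSO and 3.08, 4.39 and 3.19 FPKM with the inhibitor. All inhibitor libraries were high and all DMSO libraries near 0, so the groups lay far apart. The increase was 133-fold (7.06 on the log2 scale with SE 0.235, adjusted p = 2.26e-08 by edgeR), from 28 counts over the DMSO libraries to 3241. An unnamed gene on the opposite strand (ENSG00000284966) overlaps EFNB2 and held 0 counts with DMSO and 64 with the inhibitor. EFNB1 (ENSG00000090776, chromosome X, 68829021 to 68842160), a ligand of several EphB receptors, measured 1.02, 0.778 and 0.847 FPKM with DMSO and 1.86, 1.99 and 1.85 FPKM with the inhibitor. Its groups did not overlap, and the increase was 2.15-fold (1.10 on the log2 scale with SE 0.172, adjusted p = 3.17e-04 by edgeR).

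EFNB3, an ephrin of the nervous system, was low throughout. It fell from 0.276 ± 0.0536 to 0.101 ± 0.0471 FPKM without overlap between the groups (-1.42 on the log2 scale with SE 0.428, adjusted p = 0.0153 by edgeR). With a log2 change of -1.30, the adjusted p without DMSO replicate 2 was 0.0503 by edgeR, just past the threshold. Against inhibitor replicate 1 alone, where the spread comes from the DMSO libraries, it was 0.186. EFNA4 (ENSG00000243364, chromosome 1, 155063737 to 155069553) measured 5.14, 4.09 and 4.34 FPKM with DMSO and 4.54, 4.12 and 4.21 FPKM with the inhibitor, with overlapping groups (-0.08 on the log2 scale with SE 0.158, adjusted p = 0.676 by edgeR). EFNA3, its neighbour on chromosome 1, measured 1.53, 2.12 and 1.96 FPKM with DMSO and 1.59, 1.59 and 0.899 FPKM with the inhibitor. DMSO replicates 2 and 3 lay above all inhibitor libraries and inhibitor replicate 3 was the lowest, but the groups overlapped (-0.46 on the log2 scale with SE 0.263, adjusted p = 0.152 by edgeR). An unnamed gene on the same strand (ENSG00000251246) overlaps both and had 0 DMSO and 58 inhibitor counts, so reads could be split between them. The third ephrin there, EFNA1, had 0.162 ± 0.0802 FPKM with DMSO and 0.126 ± 0.017 FPKM with the inhibitor and was not called (adjusted p = 0.582 by edgeR). EFNA2 and EFNA5 were at 0 in every DMSO library and reached 0.15 ± 0.122 FPKM and 0.0629 ± 0.0347 FPKM, each at least 6.62-fold higher (adjusted p = 0.00143 by edgeR and 7.34e-04). Inhibitor replicate 1 held 44 of the EFNA2 and 38 of the EFNA5 counts, and without it the bounds were 3.51 and 4.38. Such bounds set the DMSO group at a floor of 12 counts over its 3 libraries, that is 3 read pairs, and cover counting error only.

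Eph receptors, the kinases that bind ephrins, were nearly absent with DMSO except for EPHB4. EPHB4 (ENSG00000196411, chromosome 7, 100802565 to 100827521) measured 1.32, 1.21 and 1.56 FPKM with DMSO and 2.12, 1.94 and 1.81 FPKM with the inhibitor. The inhibitor libraries were all above the DMSO libraries, by a fitted 1.43-fold (0.52 on the log2 scale with SE 0.134, adjusted p = 0.00705 by edgeR). SLC12A9, which overlaps the EPHB4 locus on the opposite strand over 702 bases, had 10140 DMSO and 16204 inhibitor counts. The library protocol marks strand, but the strand setting of the counting was not stated, so opposite-strand reads cannot be told apart here. EPHA3 (ENSG00000044524, chromosome 3, 89107621 to 89482134), a receptor of class A ephrins, measured 0.0147, 0.0224 and 0.0331 FPKM with DMSO and 0.632, 0.519 and 0.704 FPKM with the inhibitor. That is a 25.3-fold increase to a low level, with all inhibitor libraries above all DMSO libraries (4.66 on the log2 scale with SE 0.328, adjusted p = 1.48e-06 by edgeR).

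The other Eph receptors stayed under 0.5 FPKM. EPHB6 and EPHA10, members whose kinase domain lacks activity, rose to 0.292 ± 0.0579 FPKM and 0.125 ± 0.0335 FPKM from 8 and 4 DMSO counts, each in 1 library, with adjusted p = 2.51e-04 by edgeR and 2.57e-04. The ratio of read pairs was 42 (95% exact binomial interval 11.2 to 354, from about 2 and 72 read pairs) for EPHB6. It was 56.1 (95% exact binomial interval 9.59 to 2260, from about 1 and 48 read pairs) for EPHA10, a wide interval. EPHA2, a receptor of epithelia, had 4 DMSO counts and rose to 0.102 ± 0.0559 FPKM (adjusted p = 0.00309 by edgeR), though against inhibitor replicate 1 alone the adjusted p was 0.0899. EPHA6 was at 0 in every DMSO library and reached 0.031 ± 0.008 FPKM, at least 10.2-fold higher (adjusted p = 1.53e-04 by edgeR). An unnamed opposite-strand gene within EPHA6 (ENSG00000251172) had 0 and 96 counts. The other 8, EPHA1, EPHA4, EPHA5, EPHA7, EPHA8, EPHB1, EPHB2 and EPHB3, had too few counts to be tested, with at most 0.0371 FPKM (EPHA4) in a group mean. Of the 6 Eph receptors tested, all called higher (background 38.1%), only EPHB4 had DMSO counts that could have shown a fall.

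Secreted class 3 semaphorins, which act through neuropilins and plexins, were all under 0.5 FPKM with DMSO. With the inhibitor 5 of the 6 in the table were higher, beside 38.1% of all tested genes. Of the 5, SEMA3D, SEMA3E and SEMA3F passed the filter only through the inhibitor libraries, so a call of lower was hardly open to them. SEMA3G (ENSG00000010319, chromosome 3, 52433035 to 52445103), a class 3 semaphorin of blood vessels, measured 0.264, 0.197 and 0.38 FPKM with DMSO and 3.91, 4.02 and 3.8 FPKM with the inhibitor. The 3 inhibitor libraries lay close together and far above the DMSO libraries, with a 13.8-fold increase (3.79 on the log2 scale with SE 0.217, adjusted p = 4.07e-07 by edgeR). SEMA3D (ENSG00000153993, chromosome 7, 84995553 to 85187056), known from heart and nerve development, measured 0 FPKM in every DMSO library and 0.82, 1.29 and 1.08 FPKM with the inhibitor. It was at least 156-fold higher (adjusted p = 5.87e-07 by edgeR), and it missed the rule for switched-on genes by inhibitor replicate 1 alone. SEMA3F, a ligand of NRP2, was likewise at 0 in every DMSO library and had 0.337 ± 0.0501 FPKM with the inhibitor, at least 29.5-fold more (adjusted p = 8.20e-06 by edgeR). The antisense gene that overlaps it, SEMA3F-AS1, had 309 DMSO and 523 inhibitor counts.

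SEMA3A, the first semaphorin known to collapse growth cones, rose from 0.0478 ± 0.00228 to 0.284 ± 0.0565 FPKM (5.76-fold, 2.52 on the log2 scale with SE 0.263, adjusted p = 2.03e-05 by edgeR). SEMA3E, the ligand of PLXND1, reached 0.0374 ± 0.0148 FPKM from 0 DMSO counts, at least 5.74-fold higher (adjusted p = 6.07e-04 by edgeR). SEMA3E is at the lower edge of what these libraries measure. SEMA3B was the class 3 member that was not called, with 0.164 ± 0.0486 FPKM with DMSO and 0.195 ± 0.0065 FPKM with the inhibitor (0.28 on the log2 scale with SE 0.297, adjusted p = 0.442 by edgeR). SEMA3A, SEMA3D and SEMA3E lie on chromosome 7 within 83363238 to 85187056, and SEMA3B and SEMA3F on chromosome 3 within 50155045 to 50277546. The first set rose together, at unequal levels. In the second, SEMA3F rose, and SEMA3B, already transcribed at a low level with DMSO, was not called.

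Among the 6 membrane semaphorins of class 4, 1 fell, 3 rose and 2 were not called (background 38.1% higher and 27.3% lower). SEMA4D (ENSG00000187764, chromosome 9, 89360787 to 89498130), the CD100 antigen of lymphocytes, was the highest semaphorin in both groups. It measured 7.33, 7.54 and 7.42 FPKM with DMSO and 7.21, 6.79 and 7.01 FPKM with the inhibitor. The values differed by little and the test did not call them (-0.09 on the log2 scale with SE 0.046, adjusted p = 0.11 by edgeR), though without inhibitor replicate 1 SEMA4D fell by 0.13 on the log2 scale (adjusted p = 0.0324 by edgeR), and its sign turned with upper-quartile factors. An unnamed opposite-strand gene within SEMA4D (ENSG00000225460) had 4 DMSO and 599 inhibitor counts. SEMA4A (ENSG00000196189, chromosome 1, 156147366 to 156177744), a costimulatory semaphorin of dendritic and B cells, measured 4.35, 4.12 and 3.9 FPKM with DMSO and 2.19, 1.85 and 2.26 FPKM with the inhibitor. Every inhibitor library was below every DMSO library, and the level fell to 0.508 of that with DMSO (-0.98 on the log2 scale with SE 0.094, adjusted p = 1.16e-05 by edgeR). SEMA4B measured 2.19, 1.86 and 2.11 FPKM with DMSO and 1.67, 1.5 and 2.14 FPKM with the inhibitor, with inhibitor replicate 3 inside the range of the DMSO libraries, and was not called (-0.22 on the log2 scale with SE 0.138, adjusted p = 0.195 by edgeR). Without that library it was (adjusted p = 0.0362).

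The remaining class 4 members rose from low levels. SEMA4C, a ligand of PLXNB2, measured 0.0847, 0.0462 and 0.0797 FPKM with DMSO and 0.583, 0.602 and 0.669 FPKM with the inhibitor (8.55-fold, 3.10 on the log2 scale with SE 0.278, adjusted p = 7.48e-06 by edgeR). SEMA4F measured 0.13, 0.127 and 0.141 FPKM with DMSO and 1.06, 0.833 and 0.587 FPKM with the inhibitor (6.19-fold, 2.63 on the log2 scale with SE 0.266, adjusted p = 1.68e-05 by edgeR). The inhibitor libraries were apart from the DMSO libraries in both, more evenly for SEMA4C than for SEMA4F. SEMA4G measured 0.286, 0.237 and 0.197 FPKM with DMSO and 0.673, 0.72 and 0.725 FPKM with the inhibitor (2.92-fold, 1.55 on the log2 scale with SE 0.216, adjusted p = 1.52e-04 by edgeR). The whole SEMA4G locus is overlapped on the opposite strand by MRPL43, which had 7485 DMSO and 4890 inhibitor counts, so the SEMA4G level is uncertain.

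Among classes 5 to 7, SEMA6A, SEMA6C and SEMA7A were tested, and all 3 rose (background 38.1% higher). SEMA6C, a transmembrane semaphorin, measured 0.778, 0.718 and 0.986 FPKM with DMSO and 1.44, 1.37 and 1.49 FPKM with the inhibitor. Its groups did not overlap (1.72-fold, 0.78 on the log2 scale with SE 0.16, adjusted p = 0.00177 by edgeR). SEMA7A (ENSG00000138623, chromosome 15, 74409289 to 74433958), the lipid-anchored ligand of PLXNC1, measured 0.0587, 0.263 and 0.122 FPKM with DMSO and 0.591, 0.6 and 0.457 FPKM with the inhibitor. DMSO replicate 2 was above the other 2 DMSO libraries but below all inhibitor libraries (3.62-fold, 1.85 on the log2 scale with SE 0.462, adjusted p = 0.00559 by edgeR), and against inhibitor replicate 1 alone the adjusted p was 0.0587. Without DMSO replicate 2 the log2 change was 2.56. SEMA6A, a ligand of class A plexins, rose from 0.0848 ± 0.0152 to 0.253 ± 0.00653 FPKM (2.96-fold, 1.57 on the log2 scale with SE 0.234, adjusted p = 2.36e-04 by edgeR), and the antisense gene SEMA6A-AS1 had 214 DMSO and 241 inhibitor counts. SEMA5A, SEMA5B, SEMA6B and SEMA6D had too few counts to be tested, at most 0.0212 FPKM in a group mean (SEMA6B with DMSO).

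Of the 7 plexins tested, 6 rose and PLXNC1, the leading one with DMSO, fell (background 38.1% higher and 27.3% lower). PLXNB1 and PLXNB3 passed the filter only through the inhibitor libraries. Of the other 5, 4 were higher and 1 lower, beside 28.2% and 35.5% of all such genes. PLXNC1 (ENSG00000136040, chromosome 12, 94148577 to 94307675), the receptor of SEMA7A, was the highest of all 52 members with DMSO. It measured 18.3, 16.5 and 18.7 FPKM with DMSO and 6.33, 6.05 and 6.61 FPKM with the inhibitor. Every inhibitor library was far below every DMSO library, at 0.354 of the DMSO level (-1.50 on the log2 scale with SE 0.058, adjusted p = 4.65e-08 by edgeR). Several opposite-strand genes lie in its locus, the most abundant being CEP83 (5436 DMSO and 5912 inhibitor counts, against 38033 and 11558 for PLXNC1).

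Class A plexins, the signalling partners of neuropilins, rose where they were expressed. PLXNA3 (ENSG00000130827, chromosome X, 154458281 to 154477779) measured 4.95, 5.04 and 4.81 FPKM with DMSO and 10.1, 10.2 and 11.2 FPKM with the inhibitor (2.12-fold, 1.08 on the log2 scale with SE 0.05, adjusted p = 1.16e-07 by edgeR). PLXNA1 (ENSG00000114554, chromosome 3, 126982693 to 127037389) measured 1.5, 1.25 and 1.49 FPKM with DMSO and 7.39, 6.26 and 7.28 FPKM with the inhibitor (4.92-fold, 2.30 on the log2 scale with SE 0.092, adjusted p = 5.39e-08 by edgeR). Neither showed any overlap between the groups. PLXNA2 and PLXNA4 were at 0 with DMSO, reached 0.0146 and 0.00208 FPKM and were not tested.

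Class B and D plexins were low or silent with DMSO and all rose, beside 38.1% of all tested genes. For PLXNB1 and PLXNB3, which passed the filter only through the inhibitor libraries, a call of lower was hardly open. PLXNB1 (ENSG00000164050, chromosome 3, 48403854 to 48430086), the receptor of SEMA4D outside lymphocytes, measured 0.0198, 0 and 0.00544 FPKM with DMSO and 2.19, 1.71 and 2.37 FPKM with the inhibitor. All inhibitor libraries stood clear of DMSO values at or near 0, with 18 counts over the DMSO libraries and 3729 over the inhibitor libraries (234-fold, 7.87 on the log2 scale with SE 0.517, adjusted p = 9.58e-07 by edgeR). DMSO replicate 1 held 14 of the 18, and the log2 change was 9.49 without it and 7.22 without DMSO replicate 2, so the size of the fold rests on few counts. PLXNB2 (ENSG00000196576, chromosome 22, 50274979 to 50307646) measured 0.8, 0.793 and 0.689 FPKM with DMSO and 1.36, 1.54 and 1.47 FPKM with the inhibitor. The groups did not overlap, and the increase was 1.9-fold (0.93 on the log2 scale with SE 0.13, adjusted p = 1.52e-04 by edgeR).

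PLXND1 (ENSG00000004399, chromosome 3, 129555214 to 129606676), the receptor of SEMA3E in vessels, measured 0.127, 0.0748 and 0.0605 FPKM with DMSO and 1.75, 1.54 and 1.51 FPKM with the inhibitor. It rose 17.7-fold and its groups lay far apart (4.14 on the log2 scale with SE 0.251, adjusted p = 5.82e-07 by edgeR). PLXNB3 (ENSG00000198753, chromosome X, 153764196 to 153779346), a receptor of SEMA5A, measured 0, 0.00667 and 0.0123 FPKM with DMSO and 0.425, 0.465 and 0.716 FPKM with the inhibitor. It had 11 DMSO counts, all from replicates 2 and 3, and the ratio of read pairs was 67 (95% exact binomial interval 22.5 to 328, from about 3 and 172 read pairs), with adjusted p = 8.77e-06 by edgeR. SRPK3, a kinase gene that overlaps PLXNB3 on the same strand over 2935 bases, went from 22 to 1080 counts, so reads could be split between the 2 genes.

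Of the neuropilins, which bind class 3 semaphorins for the plexins, NRP2 was not called and NRP1 had too few counts to be tested. NRP2 measured 0.327, 0.398 and 0.338 FPKM with DMSO and 0.398, 0.304 and 0.333 FPKM with the inhibitor, with overlapping groups (-0.04 on the log2 scale with SE 0.178, adjusted p = 0.875 by edgeR), and its sign turned under 4 of the alternatives. NRP1 was at 0 with DMSO and had 10 counts over the inhibitor libraries. Among known partners, PLXNB1 rose while its ligand SEMA4D was not called, EFNB2 rose together with its receptor EPHB4, and PLXNC1 fell while its ligand SEMA7A rose. Of the class 3 semaphorins 5 rose, beside 38.1% of all tested genes. Of these, SEMA3D, SEMA3E and SEMA3F passed the filter only through the inhibitor libraries. PLXNA1 and PLXNA3 rose too, while NRP2 was not called.

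The rank order of the members changed accordingly. With DMSO it was PLXNC1, SEMA4D, PLXNA3, EFNA4, SEMA4A, SEMA4B, EFNA3, PLXNA1 and EPHB4 for the members at 1 FPKM or more, and PLXNA3, EFNA4 and SEMA4A lay next to each other with EFNA4 overlapping both others. SEMA4B and EFNA3 overlapped too, as did PLXNA1 and EPHB4. With the inhibitor PLXNA3 led, then SEMA4D, PLXNA1 and PLXNC1, of which SEMA4D and PLXNA1 overlapped in range, as did PLXNA1 and PLXNC1. EFNB2 moved from place 25 to 7, PLXNB1 from 28 to 9 and SEMA3G from 14 to 6. The summed FPKM of the plexins was 25 ± 1.2 with DMSO and 29.5 ± 1.75 with the inhibitor. PLXNC1 made up 71.2% of the DMSO sum, and PLXNA3 led with 35.6% of the inhibitor sum. Ephrins summed to 7.74 ± 0.342 and 11.5 ± 1.03 FPKM, Eph receptors to 1.4 ± 0.168 and 3.25 ± 0.19, and semaphorins to 15.6 ± 0.246 and 21.1 ± 0.386. EPHB4 held 97.1% of the Eph receptor sum with DMSO and 60.2% with the inhibitor.

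**Figure D3:**
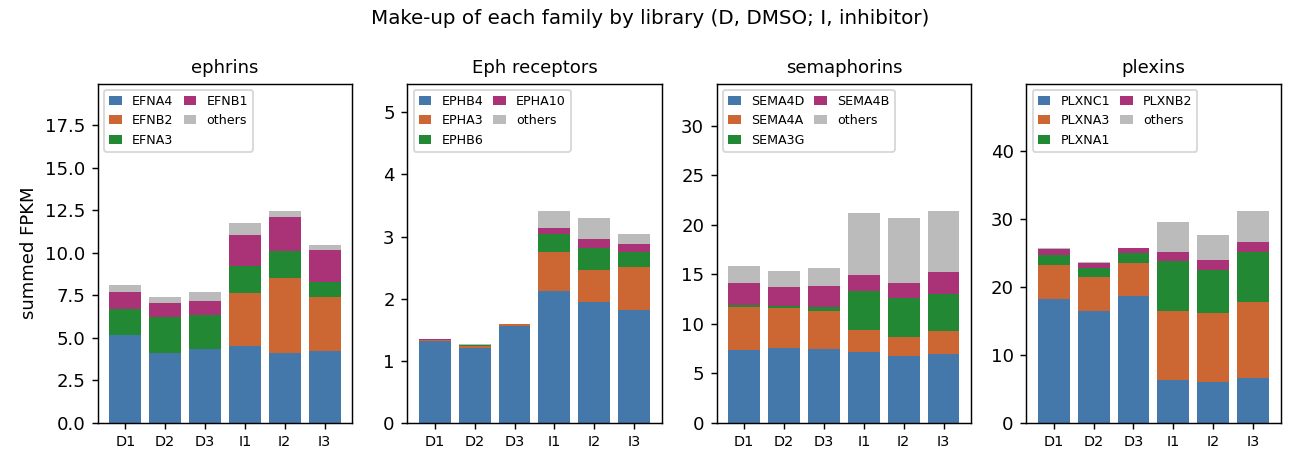
Stacked bars give the summed FPKM of the ephrins, Eph receptors, semaphorins and plexins in each library (D, DMSO; I, inhibitor), with the 4 highest members of each family in colour and the others in grey. The plexin bars average 25 and 29.5 FPKM, while PLXNC1 shrinks and PLXNA3 and PLXNA1 grow; EFNB2 appears only in the inhibitor bars at this scale.

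Promoter sequence was compared across the members. RefSeq listed a start for 46 of the 52, and 16 of these had several, of which the outermost was used. The 46 held a median of 19 CpG in 250 bases (range 3 to 46), beside 10 over all 27305 promoters in the table, and 80.4% had at least 10, against 51.7%. Among the members, the groups by test result overlapped widely. The median was 20.5 in the 14 that rose from under 0.1 FPKM, 18 in the 10 that rose from a higher level, 11.5 in the 2 of those that fell with a listed start, 24 in the 7 not called and 19 in the 13 not tested. These are descriptions of a window that need not be the start used in this line.

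A search on both strands for the GC box of SP1 (GGGCGG) found it in 82.6% of the 46 members and 42.2% of all promoters. The cyclic AMP response element (TGACGTCA) stood in 3 members (6.52%, against 1.75%), the NRF1 site, searched by its consensus, in 1, PLXNA1 (2.17%, against 5.53%), and the E-box (CACGTG) in 4 (8.7%, against 6.46%). All 4 motifs contain CG, and the members' windows hold more CpG than the median promoter. Of the windows printed above, those of EFNB2, SEMA3G, PLXNA1, PLXNC1 and SEMA4D hold a GC box, and that of PLXNB1 holds none of these motifs.

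**Figure D4:**
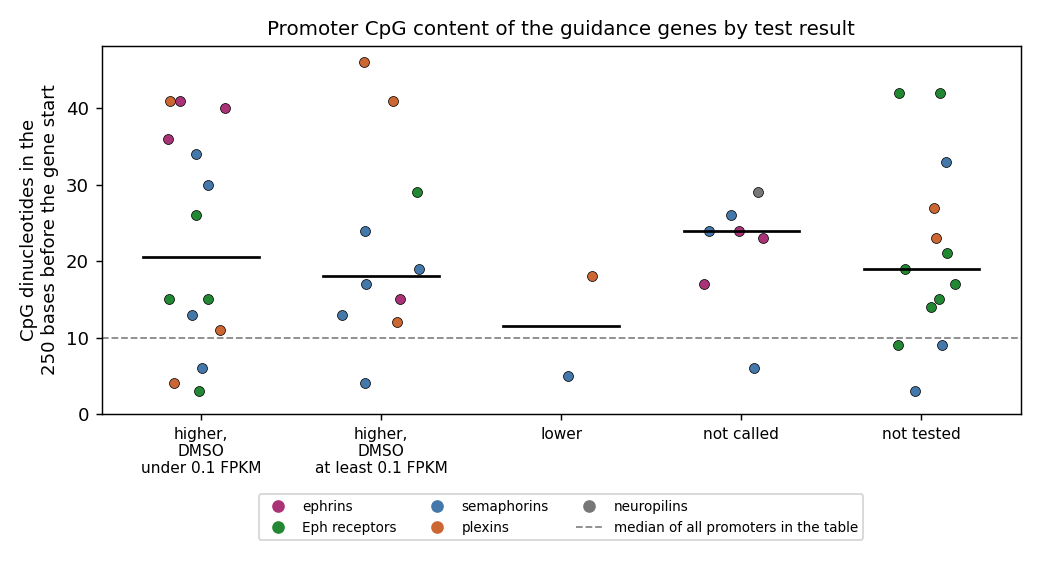
Each point is a guidance gene, placed by the number of CpG dinucleotides in the 250 bases before its outermost listed start and grouped by its test result (colours give the family, black bars the group median). The dashed line is the median of all promoters in the table, 10; the groups overlap widely.

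Genes that work with these receptors were examined from 3 lists. Other guidance cues and receptors (slits, netrins, RGM proteins and their receptors) were mostly low with DMSO. The table held 24, of which 17 were tested, with 14 higher and 0 lower, beside 38.1% and 27.3% of all tested genes (edgeR, with 0 lower at an unadjusted p of 0.05 and 0 by DESeq2, but 1 without inhibitor replicate 3). NTN3, a netrin, rose from 0.504 ± 0.121 to 2.34 ± 0.488 FPKM (2.2 on the log2 scale with SE 0.255, adjusted p = 4.32e-05 by edgeR), and DSCAML1, an adhesion molecule, from 0.594 ± 0.0604 to 1.54 ± 0.169 FPKM (1.37 on the log2 scale with SE 0.147, adjusted p = 2.58e-05 by edgeR). RGMB, a repulsive guidance molecule that binds neogenin, rose from 4.1 ± 0.246 to 6.21 ± 0.137 FPKM (0.59 on the log2 scale with SE 0.066, adjusted p = 3.33e-05 by edgeR). Most others were too low to reach 0.5 FPKM, and 8 of the 17 passed the filter only through the inhibitor libraries. Of the other 9, 7 were higher, beside 28.2% of all such genes.

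Of the partners of the receptors and the proteases that shed them, 13 of 17 were tested, with 11 higher and 1 lower, beside 38.1% and 27.3% of all tested genes. Of the 13 tested, 5, MET included, passed the filter only through the inhibitor libraries. Of the other 8, 6 were higher and 1 lower, beside 28.2% and 35.5% of all such genes. MET, the hepatocyte growth factor receptor that associates with PLXNB1, measured 0 FPKM in every DMSO library and 2.62, 3.71 and 2.64 FPKM with the inhibitor. It met the rule for switched-on genes and was at least 384-fold higher (adjusted p = 1.53e-07 by edgeR). CD72, the lymphocyte receptor of SEMA4D, measured 12.5, 12.7 and 13 FPKM with DMSO and 34.6, 38.7 and 33.8 FPKM with the inhibitor, a 2.78-fold increase (1.48 on the log2 scale with SE 0.059, adjusted p = 5.39e-08 by edgeR). The receptor tyrosine kinase ERBB2, another partner of PLXNB1, rose from 0.83 ± 0.0923 to 1.56 ± 0.102 FPKM (0.90 on the log2 scale with SE 0.119, adjusted p = 1.06e-04 by edgeR), and ITGB1, the integrin chain that binds SEMA7A, from 3.99 ± 0.127 to 5.01 ± 0.304 FPKM (0.32 on the log2 scale with SE 0.052, adjusted p = 4.09e-04 by edgeR). FLT1, a VEGF receptor, was the gene that fell, from 5.97 ± 0.534 to 2.86 ± 0.102 FPKM (-1.07 on the log2 scale with SE 0.069, adjusted p = 8.44e-07 by edgeR). PTPRC, the phosphatase CD45, had 1.19 ± 0.111 FPKM with DMSO and 1.19 ± 0.075 FPKM with the inhibitor and was not called (adjusted p = 0.927 by edgeR).

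Intracellular effectors split both ways, with 22 higher, 15 lower and 10 not called of 47 tested. Of all tested genes 38.1% were higher and 27.3% lower. DPYSL3, DPYSL4, DPYSL5, FES, GRIP1 and RND2 passed the filter only through the inhibitor libraries. Of the other 41, 16 were higher (39%) and 15 lower (36.6%), beside 28.2% and 35.5% of all such genes. Of the 38 at a mean of at least 0.5 FPKM, 14 were higher (36.8%, against 32.4% of all genes at that level). Another 15 were lower (39.5%, against 36.6%), so the shares of these 38 were near the background. FYN, a Src family kinase downstream of plexins and Ephs, rose from 2.54 ± 0.116 to 12.4 ± 0.155 FPKM (2.27 on the log2 scale with SE 0.053, adjusted p = 5.51e-09 by edgeR). MICAL1, an oxidase of actin that binds plexins, rose from 7.58 ± 0.549 to 25.1 ± 1.74 FPKM (1.72 on the log2 scale with SE 0.063, adjusted p = 3.51e-08 by edgeR). VAV2, a guanine nucleotide exchange factor, rose from 0.403 ± 0.0745 to 1.37 ± 0.2 FPKM and DPYSL4, of the collapsin response mediator family, from 0.0518 ± 0.016 to 1.08 ± 0.259 FPKM (edgeR adjusted p = 3.58e-05 and 2.46e-06). In the other direction RRAS and RAP1B, small GTPases of the kind plexins act on, fell from 3.17 ± 0.461 to 0.969 ± 0.126 FPKM and from 21.6 ± 1.18 to 10.3 ± 0.403 FPKM. RND1, a protein that binds plexins, fell from 14.3 ± 0.518 to 6 ± 0.201 FPKM and LIMK2, a kinase of cofilin, from 8.61 ± 0.255 to 3.28 ± 0.483 FPKM. By edgeR, the adjusted p-values of RRAS, RAP1B, RND1 and LIMK2 were 9.46e-05, 1.49e-07, 1.33e-07 and 1.94e-06.

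**Figure D5:**
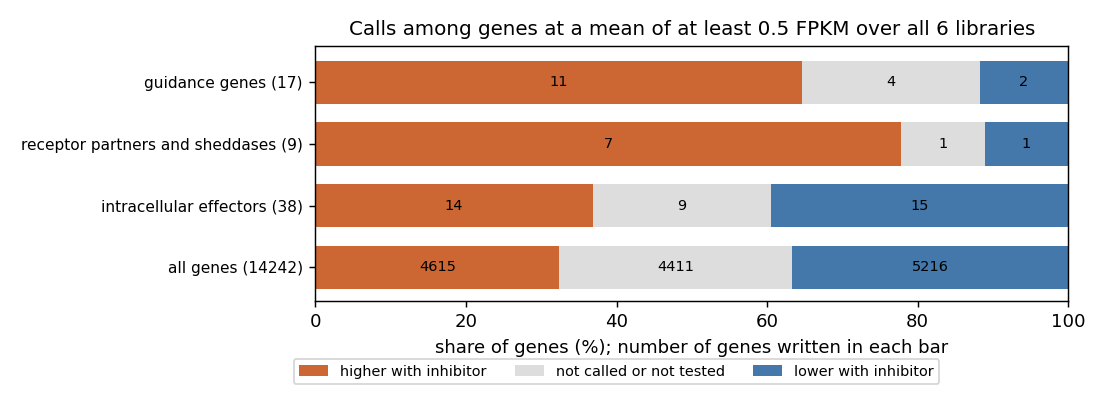
Bars give the share of genes called higher (orange), called lower (blue) or neither (grey) at an edgeR adjusted p of 0.05, among genes at a mean of at least 0.5 FPKM over all 6 libraries, with the number of genes in each bar. Of the 17 guidance genes 11 were higher and 2 lower, of the 9 receptor partners and sheddases 7 and 1, of the 38 intracellular effectors 14 and 15, and of all 14242 genes 4615 and 5216.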

How the data were processed

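The authors deposited 1 table that gives, per the file headers, an estimated count and an FPKM value for each gene and library. How those were scaled was not stated. Tools listed per the submitters' processing notes, without roles or order, are HISAT2 2.2.1, StringTie 2.1.6, cutadapt 1.9, edgeR and DESeq2. The notes name mouse build mm10, but the IDs are human: 34105 of 35974 match GENCODE release 29, and 99.87% of those overlap their GRCh38 position, so coordinates were read as GRCh38. Libraries were made from oligo(dT)-selected RNA with dUTP strand marking and sequenced in pairs, per the labels' protocols. The deposited counts are whole numbers and were taken without rounding. Libraries were grouped by their titles. No libraries had identical values, and replicates differed by 3.5 to 7.45 times the variance that sampling of read pairs gives. The test was edgeR 4.0.16 in R 4.3.3 (quasi-likelihood, filterByExpr, TMM factors, two-sided, Benjamini-Hochberg over 20783 genes, threshold 0.05). SE is the log2 change divided by the square root of F. Folds are fitted values, except bounds and ratios of read pairs where the DMSO libraries held at most 12 counts. Alternatives were DESeq2 1.42.0, limma 3.58.1 on log2(FPKM + 0.1, 0.5 or 1), other filters and scalings, the replicate block and leaving out libraries. The tests were also run on simulated counts in which few genes changed, as many up as down. That check does not cover a change as wide as the one here. Members with a group mean of at least 0.5 FPKM are given by library. From each other list, up to 4 called genes per direction at 1 FPKM or more are named by their change in log2(FPKM + 0.5), with CD72, PTPRC and DNMT1 whatever they show. Members and lists were chosen with earlier results of these data known. The split by whether the DMSO libraries alone reach the filter's minimum (10 counts at the median library size, in all 3) was added after the values were seen. Promoters came from RefSeq (GRCh38.p14). One marker gene is not reported here.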

Additional observations from a re-analysis of the deposited data

How the results depend on the processing

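Across 842 values of the 55 genes given with a test, 809 kept their direction and their side of the threshold, 10 lost the call, 5 gained it and 18 turned sign. The 18 belong to 5 genes, none of them called by edgeR on all 6 libraries. A gene that an alternative did not test has no value there and is not in this tally. With counts divided by 4, 31 guidance genes were tested, 22 higher and 3 lower, beside 6595 higher and 5303 lower of all 16200 genes tested there. EFNA2, EFNA5, EPHA2, EPHA6 and SEMA3E, called higher on the full counts, were not tested there. Restricting to genes of FPKM 1 or more gave log2 changes of 0.016 for EFNA4, 0.006 for SEMA4D and 0.086 for PTPRC. Upper-quartile factors gave 0.091, 0.081 and 0.161 for the same genes and 0.136 for NRP2. Inhibitor replicate 1 alone gave 0.024 for EFNA4 and 0.191 for NRP2, quantile normalization 0.035 for SEMA4D, DESeq2 0.009 and counts divided by 4 gave 0.019 for PTPRC. Leaving out 1 library moved EFNA1 over -0.66 to 0.061, EFNA4 over -0.145 to 0.01, NRP2 over -0.166 to 0.057 and PTPRC over -0.065 to 0.056. The cause was not tested. PTPRC was called lower with quantile normalization (limma adjusted p = 0.011).

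The number of guidance genes called higher was 10 of 16 tested in the restriction to FPKM 1 or more, and of 21 tested it was 15, 15 and 15 with limma at the pseudocounts 0.1, 0.5 and 1 and 9 with quantile normalization, against 27 of 37. These alternatives test fewer genes. In that order, the other guidance cues gave 3, 5, 5, 5 and 4, and the receptor partners 7, 6, 6, 6 and 5 (2 lower with quantile normalization). All genes gave 4826, 5233, 5260, 5259 and 4853, of 12395 tested in the first and 14807 in each of the others. With inhibitor replicate 1 alone, 7 receptor partners were higher and 1 other guidance cue was lower. Leaving out 1 library gave 27 to 31 guidance genes higher, 2 to 4 lower, and 0 to 1 other guidance cues lower. Over all genes it gave 7481 to 8065 higher and 5263 to 5434 lower, of 21550 to 22130 tested. The switched-on members were then 2 to 3 (PLXND1 joined without DMSO replicate 1 and SEMA3D without inhibitor replicate 1). With 0.5 FPKM in place of 1 in the rule for switched-on genes, 5 guidance genes met it, EPHA3, SEMA3D and SEMA4C besides EFNB2 and PLXNB1. For the switched-on counts under these changes no share over all genes is given here, so they are not set against a background.

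Same-numbered libraries did not deviate together (r = 0.053, 0.04 and -0.058 for numbers 1, 2 and 3), so the numbers were not taken to pair them. With the replicate block 27 guidance genes were higher, 3 lower, and 1 other guidance cue was lower, and over all genes 7448 were higher and 5368 lower. Depth limits the members under 0.1 FPKM, which rest on a few read pairs.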

Other observations

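For the members at 0.5 FPKM or more, the nearest protein-coding gene on either side that does not overlap the member was read from the same fit. Genes that overlap a member, such as CEP83 at PLXNC1 and SLC12A9 at EPHB4, were left out. Some neighbours are given here, chosen after their values were seen. EFNB2 lies 6011 bases from ARGLU1, a splicing-related gene expressed throughout, which had 79.1 ± 3.4 FPKM with DMSO and 87.8 ± 6.28 FPKM with the inhibitor (0.14 on the log2 scale with SE 0.052, adjusted p = 0.0351 by edgeR). PLXNB1 lies 2078 bases from CCDC51, a mitochondrial gene that fell from 12.8 ± 1.02 to 6.25 ± 0.262 FPKM (-1.04 on the log2 scale with SE 0.083, adjusted p = 3.38e-06 by edgeR). ARGLU1 thus rose by far less than EFNB2, and CCDC51 moved opposite to PLXNB1. PLXNA3 rose between 2 genes that fell, FAM50A (from 20.8 ± 1.04 to 11.3 ± 0.836 FPKM, -0.89 on the log2 scale with SE 0.069, adjusted p = 2.90e-06 by edgeR) and UBL4A (from 22.9 ± 1.34 to 9.84 ± 1.16 FPKM, -1.23 on the log2 scale with SE 0.09, adjusted p = 2.00e-06 by edgeR). SEMA3G lies 9394 bases from PHF7, which fell from 8.38 ± 0.379 to 4.84 ± 0.458 FPKM (-0.80 on the log2 scale with SE 0.088, adjusted p = 3.11e-05 by edgeR). PLXND1 lies 41116 bases from TMCC1, which had 1.45 ± 0.125 FPKM with DMSO and 1.48 ± 0.0624 FPKM with the inhibitor and was not called (0.03 on the log2 scale with SE 0.107, adjusted p = 0.827 by edgeR).

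At other members a neighbour rose as well. PLXNA1 lies between CHCHD6, 22273 bases away, and PRR20G, 246394 bases away. Both were at 0 with DMSO and at 0.19 ± 0.0504 and 1.35 ± 0.103 FPKM with the inhibitor. SEMA3D lies 503004 bases from SEMA3A, itself a member that rose. EPHB4 lies 39866 bases from TRIP6, an adaptor of focal adhesions, which rose from 0.707 ± 0.121 to 4.57 ± 0.355 FPKM (2.67 on the log2 scale with SE 0.173, adjusted p = 8.74e-07 by edgeR). ZAN, nearer to EPHB4 at 4768 bases, had 0 FPKM with DMSO and 0.0191 with the inhibitor and was not tested. PLXNB2 lies 1384 bases from DENND6B, which rose from 0.44 ± 0.0864 to 1.31 ± 0.26 FPKM (1.57 on the log2 scale with SE 0.209, adjusted p = 1.12e-04 by edgeR).

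Neighbours of members that did not rise could rise too. SEMA4A, which fell, lies 7285 bases from LMNA, the gene of lamin A, which rose from 0.897 ± 0.117 to 4.17 ± 0.124 FPKM (2.2 on the log2 scale with SE 0.1, adjusted p = 1.09e-07 by edgeR). PLXNC1, which fell, lies 253737 bases from CRADD, which had 1.78 ± 0.183 FPKM with DMSO and 1.66 ± 0.0694 FPKM with the inhibitor and was not called (-0.11 on the log2 scale with SE 0.138, adjusted p = 0.516 by edgeR). On the other side of PLXNC1, TMCC3 at 259447 bases rose from 0.025 ± 0.021 to 0.267 ± 0.057 FPKM (3.42 on the log2 scale with SE 0.53, adjusted p = 3.01e-04 by edgeR). SEMA4D, not called, lies 1124 bases from SECISBP2, which rose from 6.36 ± 0.163 to 9.22 ± 0.716 FPKM (0.53 on the log2 scale with SE 0.057, adjusted p = 2.66e-05 by edgeR).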
